A study of Mus musculus with 12 samples.

Results

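A set of 10 genes of MHC class I antigen processing that lie outside the H2 family was followed across the series. They were chosen by gene symbol, as B2m, Tap1, Tap2, Tapbp, Psmb8, Psmb9, Psmb10, Nlrc5, Erap1 and Calr, and all 10 were listed among the 40077 genes measured in cells and among the 34508 measured in tumors. Genes of the H2 family itself were not analysed here. RNA was sequenced from Myc-CaP cells, a mouse prostate carcinoma line that carries a MYC transgene, after DMSO or after YJ1206 at 1 μM for 24 hours. YJ1206 is a proteolysis-targeting chimera that brings CDK12 and CDK13 to degradation. RNA was also sequenced from subcutaneous tumors that the same line formed in immunocompetent male FVB mice, which were given either the vehicle or oral YJ1206 at 100 mg/kg in 3 doses a week. Each of the 4 groups held 3 libraries. The ages of the mice, and whether each tumor library came from a separate animal, are not given in the sources used here. The study asked whether loss of CDK12 and CDK13 activity raises STING signaling and MHC class I.

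MHC class I molecules show peptides from inside the cell to CD8+ T cells. The proteasome cuts proteins into peptides, and on induction by interferons its standard catalytic subunits Psmb5, Psmb6 and Psmb7 are exchanged for Psmb8, Psmb9 and Psmb10, which form the immunoproteasome. The transporter made of Tap1 and Tap2 moves peptides into the endoplasmic reticulum, Erap1 trims them, tapasin (Tapbp) and calreticulin (Calr) load them, and the heavy chain reaches the cell surface only with beta-2 microglobulin (B2m). Nlrc5 is a transactivator that drives class I genes, and low expression of these genes is a known route by which tumors escape CD8+ T cells.

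The regulatory sequences of several members are shown with their matches to interferon and constitutive motifs. Any link between a match and a transcript change was not tested. Promoter windows from RefSeq, on GRCm38.p6, were present for 8 of the 10 genes, all except Tap2 and Nlrc5. They were searched on both strands for the interferon-stimulated response element (ISRE, GAAA followed by GAAA after 2 bases of any kind), the gamma-activated site (GAS, TTCNNNGAA), the NF-kappaB motif, and the constitutive boxes CCAAT and TGACG. Among all 32851 promoter windows of the same length, 3.44% held the ISRE, 8.3% the GAS, 4.51% the NF-kappaB motif, 37.4% CCAAT and 20.8% TGACG. The windows searched ran from 250 bases before to 50 after the start, and the sequences below show the part before it (for Erap1, the stretch that ends with its match). In these sequences, which are read 5′ to 3′ on the plus strand, capitals mark every match to one of these motifs and positions count from the transcription start. A match describes letters only, and no occupancy was measured.
B2m promoter, chr2:122147437-122147686: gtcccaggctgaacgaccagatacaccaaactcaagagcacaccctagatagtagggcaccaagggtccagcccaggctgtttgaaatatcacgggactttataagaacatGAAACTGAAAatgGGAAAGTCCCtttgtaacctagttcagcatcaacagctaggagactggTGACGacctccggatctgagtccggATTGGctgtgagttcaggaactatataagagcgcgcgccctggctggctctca
Tap1 promoter, chr17:34187306-34187555: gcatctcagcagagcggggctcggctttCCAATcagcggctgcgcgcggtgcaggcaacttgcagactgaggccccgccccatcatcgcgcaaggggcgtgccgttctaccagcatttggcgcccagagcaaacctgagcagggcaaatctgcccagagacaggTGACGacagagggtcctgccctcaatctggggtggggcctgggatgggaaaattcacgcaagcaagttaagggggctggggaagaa
Psmb8 promoter, chr17:34197945-34198194: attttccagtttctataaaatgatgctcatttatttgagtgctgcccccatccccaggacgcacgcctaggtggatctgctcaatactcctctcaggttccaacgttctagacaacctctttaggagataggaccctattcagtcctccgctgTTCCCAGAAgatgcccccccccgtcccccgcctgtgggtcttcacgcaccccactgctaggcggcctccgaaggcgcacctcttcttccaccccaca
Erap1 promoter, chr13:74639733-74639858: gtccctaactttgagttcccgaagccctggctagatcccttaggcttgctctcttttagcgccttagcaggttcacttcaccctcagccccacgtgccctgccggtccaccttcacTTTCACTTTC
The B2m window held an ISRE at position -139, an NF-kappaB match next to it at -126, TGACG at -78 and a reversed CCAAT box at -53. The Erap1 window held an ISRE that spans the RefSeq transcription start, beginning at position -4. The Psmb8 window held a GAS at position -97. The Calr and Tapbp windows held matches to CCAAT only, and the Psmb10 window held no match. Tap1 and Psmb9 are transcribed away from each other from starts 226 bases apart, and their windows share 275 of 300 bases, so the sequence shown for Tap1 also serves Psmb9; it held CCAAT at -222 and TGACG at -86. These 2 genes lie with Psmb8 and Tap2 in a cluster of 34335 bases at chr17:34181987-34216321 (GENCODE vM21, GRCm38), and the exons of Tap1 and Psmb9 share 212 bases. Tapbp lies outside it at chr17:33915899-33929292, Erap1 at chr13:74639568-74693201, and Calr (chr8:84841850-84846934), Nlrc5 (chr8:94434356-94527272) and Psmb10 (chr8:105935735-105938444) lie on one chromosome apart from the others. Windows and positions use RefSeq starts, whereas the GENCODE spans of Erap1, Psmb8 (chr17:34197721-34201454) and Psmb9 begin further upstream. The sequences shown for Erap1 and Psmb8 therefore lie inside their GENCODE spans.

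In cultured cells the transcript levels of the members ranged from abundant chaperone to barely detected transactivator. Levels of different genes were compared as TPM (transcript abundance corrected for gene length and library total). In DMSO-treated cells Calr stood at 822 ± 16.1 TPM (SD, n = 3) and B2m at 214 ± 8.06, followed by Tapbp at 21.3 ± 1.58, Psmb10 at 14 ± 0.928, Erap1 at 11.9 ± 1.70 and Tap2 at 2.58 ± 0.238. Psmb9, Psmb8 and Tap1 were all under 1 TPM in every DMSO library, and Nlrc5 was represented by 1 read in 1 of the 3 libraries. Psmb10 and Erap1 overlapped in TPM, as did Psmb9, Psmb8 and Tap1, so the order within these groups was not resolved. In vehicle tumors the order differed at the top, with B2m at 1603 ± 396 TPM above Calr at 1035 ± 98.0, then Tapbp at 82.8 ± 2.72, Erap1 at 35.9 ± 4.88, Psmb10 at 18 ± 3.97, Psmb8 at 15.8 ± 0.864, Tap2 at 12.8 ± 1.27, Psmb9 at 4.01 ± 0.650, Tap1 at 3.39 ± 0.800 and Nlrc5 at 1.76 ± 0.475. Psmb10 overlapped Psmb8, and Psmb9 overlapped Tap1. After YJ1206 the order at the top was the same as in the matching control, with Calr at 616 ± 12 and B2m at 426 ± 21.5 TPM in cells and B2m at 4174 ± 149 and Calr at 1544 ± 59.2 TPM in tumors, and Tapbp was again next, at 23.7 ± 1.04 and 122 ± 5.51 TPM. Below these, Psmb10, Erap1 and Tap2 overlapped as neighbours in treated cells, as did Psmb8, Tap1 and Psmb9, and in treated tumors Psmb8 overlapped Psmb10 and Psmb9 overlapped Tap1. Levels in cells and in tumors are set side by side only as values, because the tables list different genes and were scaled separately.

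**Figure D1:**
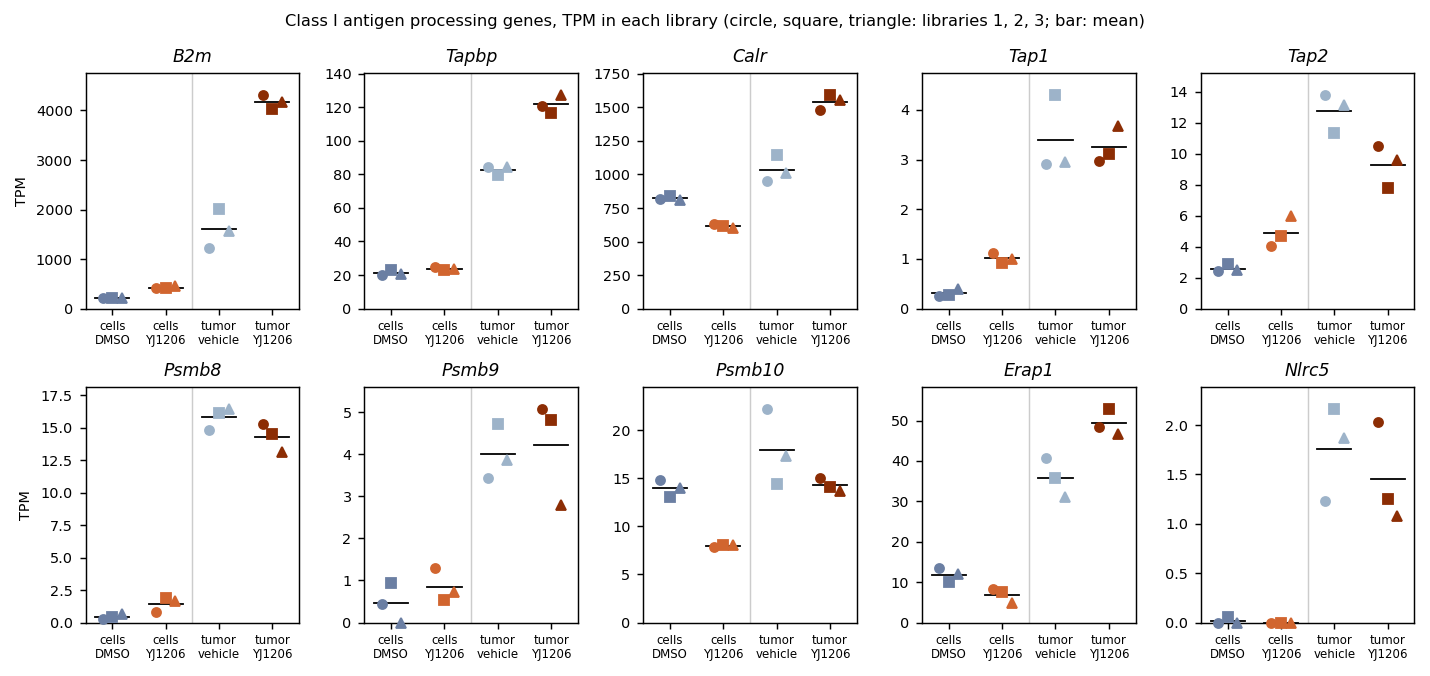
TPM (vertical axis, linear from 0, its own range in each panel) of the 10 genes in the 12 libraries, with a bar at each group mean (n = 3). B2m stood between 206 and 222 TPM with DMSO and between 4022 and 4320 TPM in YJ1206 tumors, and Nlrc5 was at or near 0 in all cell libraries.

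Several features of the libraries bear on what follows. Total counts were 18198086 to 18519926 with DMSO, 13936902 to 14869592 in YJ1206-treated cells, 15391544 to 26928365 in vehicle tumors and 18307820 to 22418665 in YJ1206 tumors, and 3 counts, taken as the floor, equal 0.113 to 0.231 CPM (counts scaled to the library total after TMM normalization). The library numbers of the DMSO cells and of the YJ1206-treated cells run in 2 different series, so treatment in culture cannot be told apart from a library batch. In the tumors, library 3 of each group lay between libraries 1 and 2 for 92.7% (vehicle) and 89.5% (YJ1206) of the genes on which libraries 1 and 2 differed by at least 0.5 on the log2 scale, against 67.8% to 77.4% for each cell library; each called tumor result for the 10 genes is therefore also given from libraries 1 and 2 alone. Epcam, an epithelial marker, had 0 counts in all cell libraries. Ptprc, Adgre1 and Cd74, which mark leukocytes, macrophages and class II carrying cells, had 0 counts in all cell libraries and were detected in every tumor. Other genes of the marker lists were not at 0 in cells. Counts of Cd68, of the macrophage list, were 12, 24 and 24 under DMSO against 59, 43 and 70 under YJ1206 (log2 2.06, adjusted p = 2.35e-07, edgeR), and those of Cd3d, of the T cell list, were 93, 56 and 92 against 24, 21 and 18 (log2 -1.39, adjusted p = 1.65e-05). In bulk tumor RNA, fewer cells of a type and less RNA per cell cannot be told apart.

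B2m, the invariant light chain, rose with YJ1206 in both settings. In cells it measured 82.7, 75.9 and 77.9 CPM with DMSO and 191, 189 and 211 CPM with YJ1206, with no overlap. The log2 fold change was 1.32 (SE 0.044, adjusted p = 4.32e-20, edgeR quasi-likelihood test), a 2.50-fold increase, and B2m moved from rank 654 to 718 among the genes of a library to rank 315 to 346. In tumors it measured 495, 852 and 642 CPM with vehicle and 1851, 1766 and 1810 CPM with YJ1206. Every treated tumor was above every vehicle tumor, by 1.45 on the log2 scale (SE 0.18, adjusted p = 0.00223), a 2.73-fold increase, and B2m reached rank 18 to 20. From libraries 1 and 2 alone the estimate was 1.42, with an unadjusted p of 0.00279 and an adjusted p of 0.134 in edgeR. The YJ1206 effect on B2m did not differ detectably between tumors and cells (difference 0.096, 95% interval -0.32 to 0.51, adjusted p = 0.735, edgeR), except that without vehicle library 2 the difference was 0.31 and called (adjusted p = 0.0295). B2m lies at chr2:122147686-122153083, and no exon of the overlapping gene Patl2 covers its exons.

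The chaperones that load peptide diverged in cells and rose together in tumors. Tapbp, which bridges the transporter and the empty heavy chain, measured 30.5, 35.4 and 28.8 CPM with DMSO and 43.4, 40.8 and 44.4 CPM with YJ1206. This was a log2 increase of 0.44 (SE 0.069, adjusted p = 2.01e-06, edgeR). On TPM the increase was 0.15 on the log2(TPM + 1) scale and lost its call (adjusted p = 0.0785, limma), where the median of all genes was itself at -0.245. Calr, the lectin chaperone that holds newly folded heavy chains, measured 968, 997 and 950 CPM with DMSO and 913, 901 and 893 CPM with YJ1206. It fell 1.08-fold (log2 -0.11, SE 0.024, adjusted p = 2.12e-04, edgeR), with no overlap, and its log2 value was -0.29 on total counts and -0.42 on log2(TPM + 1).

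In tumors Tapbp measured 122, 122 and 124 CPM with vehicle and 190, 186 and 191 CPM with YJ1206. The treated tumors stood apart from the vehicle tumors, with a log2 fold change of 0.62 (SE 0.047, adjusted p = 7.18e-04, edgeR). Calr measured 1175, 1472 and 1264 CPM with vehicle and 1933, 2139 and 2059 CPM with YJ1206, again with no overlap, at a log2 fold change of 0.65 (SE 0.090, adjusted p = 0.00332). With libraries 1 and 2 alone both kept their size, 0.62 for each, at unadjusted p of 0.00113 for Tapbp and 0.00865 for Calr, and neither passed adjustment in edgeR (adjusted p = 0.134 and 0.144). The effect on Calr was more positive in tumors than in cells, by 0.73 (SE 0.093, adjusted p = 2.7e-05), whereas for Tapbp the difference was 0.15 (95% interval -0.045 to 0.35, adjusted p = 0.197). Tapbp shares 149 exonic bases with Zbtb22 on the same strand, whose own log2 change was -1.09 in cells and -0.18 in tumors, the latter not called.

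The peptide transporter genes rose in cells and did not in tumors. Tap1, one half-transporter of the heterodimer, was rare in cells, with 8, 9 and 13 counts under DMSO and 24, 25 and 27 counts under YJ1206. All treated libraries held more counts than the controls, and the ratio of summed, depth-corrected counts was 3.70 (95% counting interval 2.39 to 5.85). Tap2, the other, measured 4.72, 5.63 and 4.84 CPM with DMSO and 9.73, 11.2 and 14.5 CPM with YJ1206. Its log2 fold change was 1.22 (SE 0.14, adjusted p = 1.48e-08, edgeR), a 2.33-fold increase, with treated library 3 the highest. Tap1 gave 1.87 (SE 0.35, adjusted p = 2.88e-05), but it passed the filter on low counts through the treated libraries, with 1 control library above it, so its call is partly set by the filter.

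In tumors Tap1 measured 5.0, 7.73 and 5.11 CPM with vehicle and 5.41, 5.19 and 6.75 CPM with YJ1206. The groups overlapped fully, and the log2 difference was -0.050 (95% interval -0.55 to 0.45, adjusted p = 0.888, edgeR). Tap2 measured 28.0, 20.5 and 26.8 CPM with vehicle and 22.4, 17 and 18.8 CPM with YJ1206, with the lowest vehicle tumor inside the treated range. Its log2 difference was -0.37 (SE 0.15, adjusted p = 0.117), and without vehicle library 2, the one inside that range, it was -0.50 and called (adjusted p = 0.0167, edgeR). The YJ1206 effect was lower in tumors than in cells by 1.95 for Tap1 (difference -1.95, SE 0.36, adjusted p = 5.67e-04) and by 1.62 for Tap2 (difference -1.62, SE 0.24, adjusted p = 9.74e-05). The share of Tap1 in the summed TPM of both subunits was 10.7% ± 2.72 with DMSO and 17.5% ± 3.66 with YJ1206 in cells, and 21.1% ± 5.60 with vehicle and 26.1% ± 3.52 with YJ1206 in tumors (SD, n = 3), a pair chosen after its values were seen and given without a test.

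**Figure D2:**
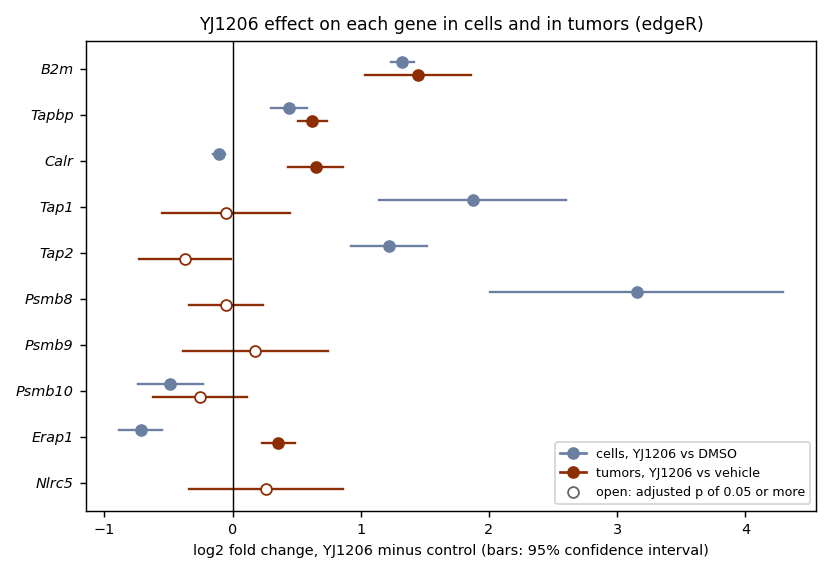
Log2 fold change for YJ1206 against DMSO in cells and against vehicle in tumors (horizontal axis), with 95% confidence intervals from edgeR and open points where the adjusted p was 0.05 or more. B2m and Tapbp lie to the right in both, Tap1, Tap2 and Psmb8 only in cells; Psmb9 and Nlrc5 had too few counts in cells to be fitted.

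The immunoproteasome subunits Psmb8 and Psmb9 had almost no transcripts in cultured cells, whereas Psmb10 was expressed there, and in tumors all 3 were present without a detectable change after YJ1206. For Psmb8 the DMSO libraries held 3, 3 and 1 counts and the YJ1206 libraries 12, 16 and 17. The treated libraries were all higher, with a ratio of 9.38 and a wide counting interval (95%, 4.2 to 24.7), and edgeR gave an adjusted p of 8.37e-06. No control library of Psmb8 passed the filter on low counts, so a tested Psmb8 could only be one that differed. For Psmb9 the DMSO libraries held 4, 4 and 0 counts and the YJ1206 libraries 15, 6 and 8. It was not tested because of its low counts; the ratio was 5.29 (95% counting interval 2.36 to 13.4), and without the filter edgeR gave a log2 value of 2.32 (adjusted p = 0.0024). Psmb10, by contrast, fell, from 9.64, 8.42 and 8.97 CPM to 6.30, 6.49 and 6.54 CPM. Treated and control libraries did not overlap, and the decrease was 1.4-fold (log2 -0.48, SE 0.12, adjusted p = 0.00104, edgeR).

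In tumors Psmb8 measured 9.33, 11.3 and 10.4 CPM with vehicle and 11, 9.58 and 9.38 CPM with YJ1206. Psmb9 measured 1.94, 1.58 and 2.00 CPM with vehicle and 2.18, 2.46 and 1.55 CPM with YJ1206, and Psmb10 measured 15.3, 10.4 and 12 CPM with vehicle and 10.9, 10.6 and 10.1 CPM with YJ1206. For all 3 subunits the groups overlapped, with log2 differences of -0.049 (95% interval -0.34 to 0.24) for Psmb8, 0.18 (-0.39 to 0.74) for Psmb9 and -0.25 (-0.62 to 0.11) for Psmb10, and adjusted p of 0.808, 0.628 and 0.269 in edgeR. The effect was lower in tumors than in cells for Psmb8 (difference -3.25, SE 0.41, adjusted p = 1.88e-05) and for Psmb9 (-2.20, SE 0.74, adjusted p = 0.0233), both resting on the low counts in cells. The call for Psmb9 was lost on TPM (-0.34, adjusted p = 0.48, limma), without YJ1206-treated cell library 1 (-1.79, adjusted p = 0.0874), without YJ1206 tumor library 3 (-2.04, adjusted p = 0.0529) and with tumor libraries 1 and 2 only (-1.98, adjusted p = 0.0943). For Psmb10 the difference was 0.20 (95% interval -0.24 to 0.64, adjusted p = 0.459).

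Each immunoproteasome subunit was also expressed as a share of the TPM of itself and the standard subunit it replaces, which does not depend on scaling between libraries. In cells the share of Psmb8 against Psmb5 was 0.448% ± 0.208 with DMSO and 1.13% ± 0.407 with YJ1206 (SD, n = 3, exact permutation p = 0.10), with the highest DMSO library at 0.67% and the lowest YJ1206 library at 0.674%. These shares rest on 1 to 17 counts of Psmb8 per library, and the DMSO library at 0.67% held the fewest, 1. The share of Psmb10 against Psmb7 was 4.59% ± 0.179 with DMSO and 2.11% ± 0.0292 with YJ1206 (n = 3, exact permutation p = 0.10), the smallest p that 3 against 3 libraries allow. Both sides of this ratio moved in cells, since Psmb7 rose by 0.68 on the log2 scale (SE 0.033, adjusted p = 2.35e-16, edgeR). The share of Psmb9 against Psmb6 was 0.245% ± 0.251 and 0.364% ± 0.179 (n = 3, exact permutation p = 0.50). In tumors the shares were 12.1% ± 0.202 and 12% ± 0.414 for Psmb8 (n = 3, exact permutation p = 1), 3.10% ± 0.343 and 3.52% ± 1.01 for Psmb9 (p = 0.50, exact) and 8.74% ± 2.22 and 8.71% ± 0.460 for Psmb10 (p = 1, exact), for vehicle and YJ1206 respectively. From estimated counts in place of TPM, the Psmb8 difference in tumors turned from -0.0232 to 0.967 percentage points, and in cells the differences went from 0.685 to 1.52 for Psmb8 and from 0.119 to 0.508 for Psmb9. These 6 permutation tests are two-sided, and none could pass 0.05 at this number of libraries.

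**Figure D3:**
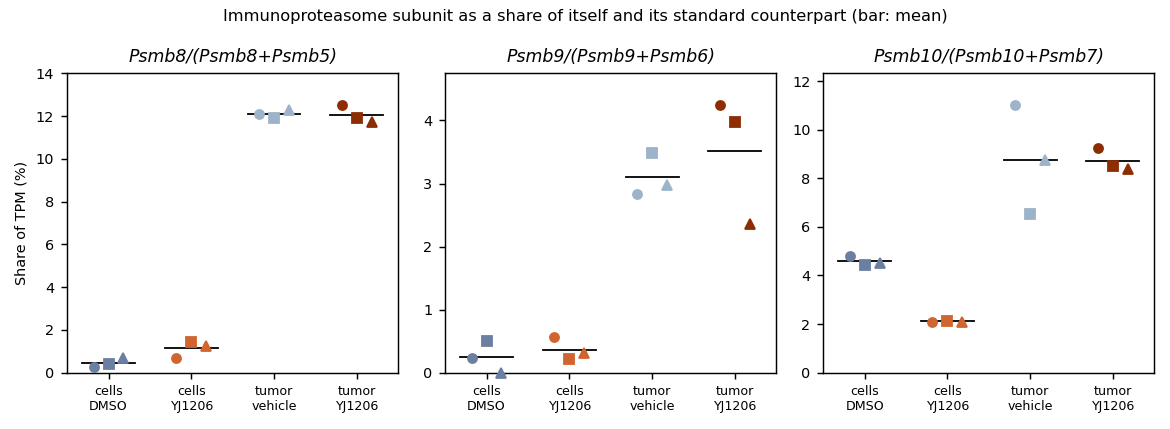
Share (%, vertical axis from 0) of Psmb8, Psmb9 and Psmb10 in the summed TPM of each subunit and its standard counterpart, in the 12 libraries, with a bar at each group mean (n = 3). The Psmb8 share stood near 12% in both tumor groups, and the Psmb10 share was 4.59% with DMSO and 2.11% with YJ1206 in cells.

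Erap1, the aminopeptidase that trims peptides to the length that class I binds, moved in opposite directions in cells and tumors. In cells it measured 33.7, 33.6 and 30.8 CPM with DMSO and 19.5, 22.5 and 17.6 CPM with YJ1206, a 1.64-fold decrease without overlap (log2 -0.72, SE 0.080, adjusted p = 6.15e-09, edgeR). In tumors it measured 68.3, 67.8 and 66.3 CPM with vehicle and 88.7, 87.0 and 83.6 CPM with YJ1206. The treated tumors were all higher, by 0.36 on the log2 scale (SE 0.055, adjusted p = 0.0044), and libraries 1 and 2 alone gave 0.37 (unadjusted p = 0.0143, adjusted p = 0.16, edgeR). The effect was more positive in tumors than in cells by 1.04 (SE 0.10, adjusted p = 3.14e-06). Erap1 shares 834 exonic bases with Cast, which lies on the opposite strand; Cast rose by 0.19 in cells (adjusted p = 3.72e-04) and changed by 0.036 in tumors (adjusted p = 0.714, edgeR). Other members also share exonic bases with genes on the opposite strand. These are Tapbp with Gm19412 (904), Tap2 with Gm15821 (533) and Gm20496 (165), Psmb8 with Gm20496 (498) and Nlrc5 with 9330175E14Rik (78). Whether strand was used in counting is not given in the sources used here, so reads in the shared bases cannot be told apart.

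Nlrc5, the class I transactivator, was at the floor in cells, with 0, 1 and 0 counts under DMSO and 0, 0 and 0 under YJ1206, so no fold is given. In tumors it measured 4.19, 6.08 and 4.85 CPM with vehicle and 8.30, 4.56 and 5.36 CPM with YJ1206. YJ1206 tumor library 1 was the highest and the other treated tumors lay inside the vehicle range, and the log2 difference was 0.26 (SE 0.26, adjusted p = 0.494, edgeR). Its sign turned to -0.17 on log2(TPM + 1) and to -0.029 without YJ1206 tumor library 1.

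Counted together, 8 of the 10 genes were tested in cells, of which 5 were called higher and 3 lower, while 76.1% of all 11826 tested genes were called, 37.8% higher and 38.3% lower. The same 8 had groups without overlap, as had 38.4% of tested genes on the higher side and 39.2% on the lower. Psmb8 had no control library over the filter and had to differ, Tap1 had 1, and the other 6 were split evenly, with B2m, Tap2 and Tapbp higher and Psmb10, Erap1 and Calr lower. In tumors all 10 were tested, and edgeR called 4 higher and 0 lower, against 26.8% of 15558 tested genes called, 11.9% higher and 14.9% lower. On the lower side 1 member, Tap2, had an unadjusted p under 0.05 (0.0453), and DESeq2 called 0 lower. With libraries 1 and 2 only, 0 of the 10 and 1 of 15684 genes were called by edgeR (3068 at an unadjusted p under 0.05). The same 4 genes, B2m, Tapbp, Erap1 and Calr, had groups without overlap, all higher with YJ1206, as did 21.8% of the tested genes, with 22.8% lower without overlap. For the difference between the effects, 4 of 9 members were more negative in tumors (Tap1, Tap2, Psmb8 and Psmb9) and 2 more positive (Erap1 and Calr), against 26.0% and 20.9% of 15328 tested genes, or 46.8% in either direction. With tumor libraries 1 and 2 only, the differences for Tap1 (-2.18), Tap2 (-1.56), Psmb8 (-3.21), Erap1 (1.05) and Calr (0.69) were still called (adjusted p of at most 0.00159, edgeR).

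The scale used for cells matters to directions in this comparison. With TMM scaling the median log2 change of all genes was -0.0172 in cells and 49.7% of called genes were higher, whereas unscaled total counts gave a median of -0.204 and 36.1%, and TPM gave -0.245 and 29.2%. B2m, Tap1, Tap2, Psmb8, Psmb10, Erap1 and Calr in cells kept their direction and their call under each of these scalings, but several sizes moved. These fits used the same filtered genes, so for Psmb8, and in part for Tap1, the kept call adds no support. With a filter of at least 1 CPM on average, Psmb8 was not tested and 4 members were called higher. On log2(TPM + 1), a scale that understates the change of low genes, Psmb8 was at 0.735 in place of 3.15 and Tap1 at 0.62 in place of 1.87. Tap2 was at 0.71 in place of 1.22, while B2m was at 0.99 in place of 1.32, or 1.14 on total counts. With the smaller pseudocount of log2(TPM + 0.1), Psmb8 was at 1.46, Tap1 at 1.46 and Tap2 at 0.88. Counts and TPM of Psmb8 also disagreed, since DMSO library 3 held the fewest counts (1) but the highest TPM (0.658) of the controls. Psmb10 was at -0.73 on log2(TPM + 1) in place of -0.48. In tumors the median stood at 0.00914, and 44.4% of called genes were higher, or 34.5% on TPM.

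**Figure D4:**
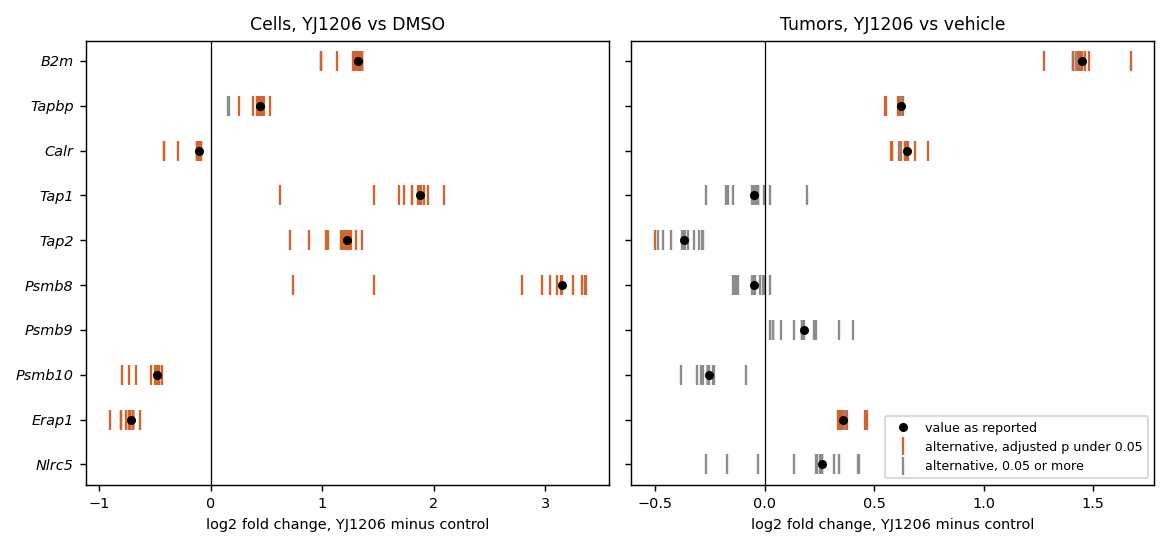
Log2 fold change of each gene as reported (black points) and under every alternative processing choice or left-out library (ticks, orange where the adjusted p was under 0.05). In tumors the values of Nlrc5, Tap1 and Psmb8 lie on both sides of 0, while B2m stays between 1.28 and 1.67.

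The other genes of the pathway were taken as 6 lists of 58 genes. Of 10 genes for loading and quality control in the endoplasmic reticulum, 3 were called higher and 4 lower in cells, where 37.8% and 38.3% of all tested genes were, at a median log2 change of -0.086 against -0.0172 for all genes. Those named for the largest changes were Sec61b, of the translocation channel (0.88, SE 0.062, adjusted p = 5.6e-13), and Hspa5, the chaperone BiP (0.71, SE 0.024, adjusted p = 3.59e-20), which rose, and Ganab, a glucosidase subunit (-0.85, SE 0.028, adjusted p = 3.95e-20), and Abcb9, a TAP-like lysosomal transporter (-2.52, SE 0.15, adjusted p = 2.42e-14), which fell. In tumors 6 of the 10 were called higher and 1 lower, where 11.9% and 14.9% of all tested genes were, at a median of 0.27 against 0.00914. Pdia3, the partner of tapasin in the loading complex, rose from 622 ± 33.9 to 896 ± 15.7 CPM (log2 0.53, adjusted p = 0.0017), Tapbpl, a tapasin homolog that edits peptides, rose by 0.52 (adjusted p = 0.0293), and Abcb9 fell by 1.45 (log2 -1.45, adjusted p = 0.017, edgeR).

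Of 9 genes for the standard and regulatory proteasome, 7 were called higher and 2 lower in cells (37.8% and 38.3% of all tested genes), and 0 higher and 2 lower in tumors (11.9% and 14.9% of all). In cells Psmb7 rose by 0.68 and Psmb6 by 0.67 (adjusted p = 8.03e-14 for the latter), and Psme3, the nuclear activator subunit, fell by 0.37 (log2 -0.37, adjusted p = 3.21e-10, edgeR). The median was 0.57 in cells and stayed positive on total counts (0.38) and on TPM (0.28). In tumors Psmb7 fell by 0.27 (log2 -0.27, adjusted p = 0.0458) and Psme3 by 0.35 (log2 -0.35, adjusted p = 0.00446, edgeR). Of 7 cytosolic and other trimming peptidases, 4 were called higher and 1 lower in cells, beside the same 37.8% and 38.3% of all genes, with Blmh at 0.59 and Nrd1 at -0.52, and 0 higher and 2 lower in tumors, Blmh (-0.50, adjusted p = 0.00663) and Thop1 (-0.31, adjusted p = 0.0143, edgeR). In tumors 1 gene of each of these lists was higher at an unadjusted p under 0.05 in edgeR, and DESeq2 called 0 higher in both. The median of the trimming list in cells changed sign with scaling, from 0.082 to -0.105 on total counts and -0.157 on TPM.

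Regulators of class I genes moved both ways. In cells 8 of 18 were called higher and 6 lower, near the 37.8% and 38.3% of all tested genes, at a median of 0.099 that turned to -0.088 on total counts and -0.162 on TPM, with Ezh2, a Polycomb methyltransferase (1.00, SE 0.029, adjusted p = 2.88e-21), and Irf2 (0.82, SE 0.065, adjusted p = 6.37e-12) rising most and Rfx5, a subunit of the complex that binds class I promoters, falling from 12.8 ± 0.887 to 4.09 ± 0.549 CPM (-1.64, SE 0.13, adjusted p = 9.35e-12, edgeR). Suz12, of the same Polycomb complex as Ezh2, fell by 0.49 (log2 -0.49). In tumors 5 of 19 were called higher and 6 lower (11.9% and 14.9% of all), with Stat2 rising from 34.6 ± 3.15 to 84.4 ± 5.37 CPM (1.28, SE 0.088, adjusted p = 6.29e-04) and Irf1 from 38.1 ± 2.04 to 60.2 ± 0.821 CPM (0.66, SE 0.066, adjusted p = 0.00137, edgeR). Ezh2 fell there by 0.88 (log2 -0.88, adjusted p = 0.00181) and Suz12 by 0.73 (log2 -0.73, adjusted p = 9.2e-04, edgeR).

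Transcripts of Ifng and Ifnb1, the only interferon genes examined, were at or under the floor. Ifng had 0 counts in all 12 libraries, which allows up to 0.113 to 0.231 CPM per library, and Ifnb1 had 0 counts in all cells and vehicle tumors and 0, 1 and 2 counts in the YJ1206 tumors, at or under the floor. Among 4 tested interferon receptor genes, 1 was called higher and 1 lower in cells, Ifnar2 (0.93, adjusted p = 4.04e-10) and Ifnar1 (-0.26, adjusted p = 5.13e-04), and in tumors 2 were higher, Ifnar2 (0.67, adjusted p = 0.00417) and Ifngr1 (0.39, adjusted p = 0.0186, edgeR). Of all tested genes, 37.8% were called higher and 38.3% lower in cells, and 11.9% higher and 14.9% lower in tumors. Genes outside H2 whose proteins pair with B2m were called higher in 2 of 2 tested in cells (37.8% of all genes) and 2 of 4 in tumors (11.9% of all). Hfe, of the same list, was not tested in cells, with 18, 14 and 10 counts under DMSO and 6, 2 and 6 under YJ1206, and with DESeq2, which fitted 4 of the list, the median in cells was 0.019 in place of 1.13. Fcgrt, the heavy chain of the neonatal Fc receptor, rose by 1.02 in cells (SE 0.13, adjusted p = 4.39e-08) and by 0.71 in tumors (SE 0.062, adjusted p = 9.56e-04), and Mr1, which presents metabolites, rose by 0.64 in tumors (adjusted p = 0.0451, edgeR). With tumor libraries 1 and 2 only, none of the 6 lists held a called gene in edgeR. The 15 values named here for tumors all kept their sign, moved by at most 0.18 (Abcb9), and had adjusted p from 0.134 to 0.27, with 12 at an unadjusted p under 0.05.

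**Figure D5:**
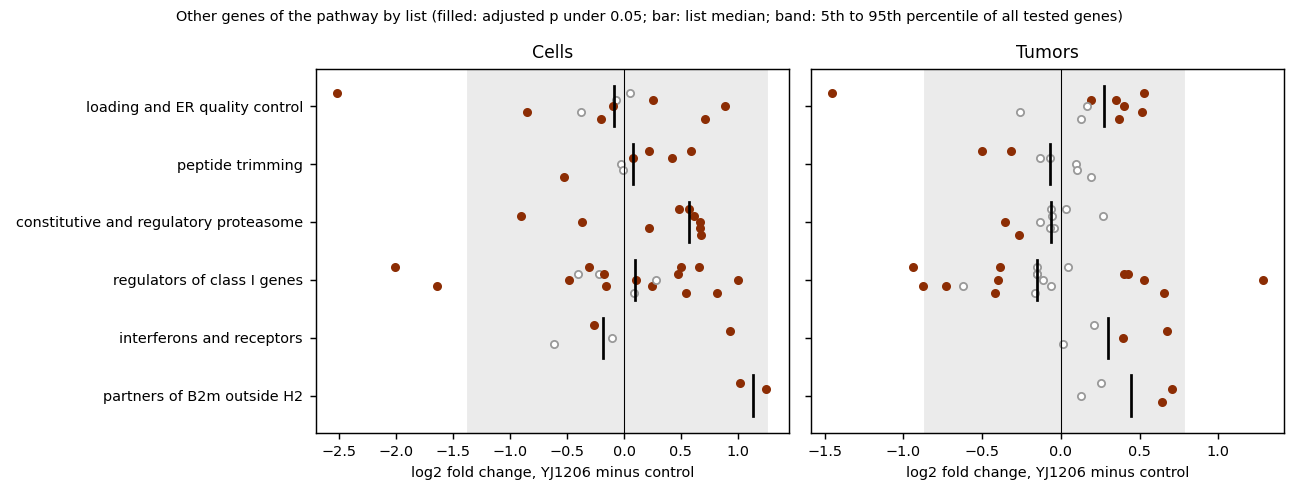
Log2 fold change of the tested genes of the 6 pathway lists in cells and in tumors (horizontal axes of different range), filled where the adjusted p was under 0.05, with a bar at the list median and a band from the 5th to the 95th percentile of all tested genes. The loading list is centred at 0.27 in tumors and at -0.086 in cells, and the proteasome list at 0.57 in cells.

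Markers of other cells moved alongside the tumor groups. The 6 leukocyte markers, all detected in every tumor, summed to 122 to 142 CPM with vehicle and 166 to 203 CPM with YJ1206, with adjusted p from 0.0506 for Cd53 to 0.753 for Laptm5 (edgeR). The largest rise of the 6 was that of Cd52, from 35.4 ± 22.3 to 72.5 ± 2.34 CPM (adjusted p = 0.107, edgeR). Ptprc, Laptm5 and Lcp1 each overlapped between the groups. The sums of the 5 endothelial markers, 105 to 125 and 127 to 141 CPM, did not overlap either. Sums of the 7 macrophage markers (235 to 355 against 260 to 362 CPM), the 6 T and CD8 cell markers (9.96 to 13.5 against 12.9 to 14.8), the 5 dendritic cell markers (6.46 to 9.94 against 8.46 to 10.2), the 5 NK cell markers (0.361 to 0.975 against 0.382 to 0.94), the 4 B cell markers (0.856 to 1.39 against 0.546 to 1.07), the 5 neutrophil markers (6.38 to 8.47 against 3.66 to 6.55) and the 5 fibroblast markers (603 to 1520 against 439 to 1050) overlapped between vehicle and YJ1206. Within these lists 3 macrophage genes were called higher, C1qa (0.62, adjusted p = 0.0278), C1qb (0.63, adjusted p = 0.0131) and C1qc (0.48, adjusted p = 0.0341), while Lyz2, the most abundant of the 7, was not (adjusted p = 0.152) and stood at 157 ± 39.2 CPM with vehicle and 118 ± 15.5 with YJ1206. Of all genes tested in tumors, 11.9% were called higher and 14.9% lower. Cd8a was called higher (0.74, adjusted p = 0.021) and the neutrophil gene S100a9 lower (-1.21, adjusted p = 0.0437, edgeR). Of the same T and CD8 cell list, Cd8b1 (0.45, adjusted p = 0.32) and Cd3d (-0.17, adjusted p = 0.473, edgeR) were not called. Cd3e, Cd3g and Cd2 had too few counts to be tested, with lower means after YJ1206. The class II markers Cd74 and Ciita summed to 18.2 to 39.9 CPM with vehicle and 14 to 16.1 CPM with YJ1206, both called lower (-0.98, adjusted p = 0.0391, and -0.94, adjusted p = 0.0303, edgeR). The 5 skeletal muscle markers reached 648 and 398 CPM in vehicle libraries 1 and 3 and lay between 7.81 and 13.3 CPM in the other 4 tumors. The part of these cell types in the tumor results was not tested. In cells the 6 leukocyte markers summed to at most 0.358 CPM and the 7 macrophage markers, mostly Cd68, to 0.667 to 1.34 CPM with DMSO and 3.25 to 5.38 CPM with YJ1206.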

How the data were processed

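Sequencing libraries were made after enzymatic removal of ribosomal RNA, although polyA RNA is the molecule given in the labels for cultured cells. The submitters' processing notes name kallisto (version not given) and the builds GRCm38 and mm10; the annotation and any use of strand in counting are not given in the sources used here. The authors deposited, for cells and for tumors separately, estimated counts per gene, not scaled between libraries, and TPM values, scaled by the authors for length and library total. Samples were grouped by their labels.

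Estimated counts were rounded and tested with edgeR 4.0.16 in R 4.3.3 (filterByExpr with a minimum count of 10, TMM, glmQLFit, glmQLFTest) on the 6 libraries of each experiment, with Benjamini-Hochberg adjustment over all tested genes and a threshold of 0.05; the tests had been planned for whole counts. The difference between effects was the interaction in 1 fit over 12 libraries, which shares 1 estimate of spread. Alternatives were DESeq2 1.42.0, total counts, other filters, limma 3.58.1 on log2(TPM + 1) and log2(TPM + 0.1), a replicate block, each library left out, and tumor libraries 1 and 2 only. Counting intervals cover counting error only. p-values measure the spread between these libraries. No library pair was identical (chi-square per gene of 1.94 to 2.90 in cells and 3.66 to 49.7 in tumors). Steps were tested on simulated data.

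The members and lists were chosen with earlier results of these data known. Named genes are the 10 members, from each pathway list the 2 called genes with the largest rise and the 2 with the largest fall at 5 CPM or more on average, and the 5 genes most like B2m and most like Tap1. Rfxap and Trac could not be matched to 1 row. Gene spans are from GENCODE vM21, which holds 97.7% of the versioned identifiers of the cell table and 97.8% of the tumor table. The summed level of the epithelial and prostate marker list is not reported here.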

Additional observations from a re-analysis of the deposited data

Results flagged for a closer look

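For 6 genes the YJ1206 effect differed between tumors and cells by the interaction term of the edgeR fit over 12 libraries. The difference, tumors minus cells on the log2 scale, was -1.95 for Tap1 (adjusted p = 5.67e-04), -1.62 for Tap2 (adjusted p = 9.74e-05), -3.25 for Psmb8 (adjusted p = 1.88e-05) and -2.20 for Psmb9 (adjusted p = 0.0233). These 4 genes had more counts after YJ1206 in all treated cell libraries than in any DMSO library, and overlapping groups in tumors. In cells Psmb8 and Psmb9 had no DMSO library above the filter on low counts, and Tap1 had 1. The differences of these genes rest on such low counts, and their separation in cells adds no support. The call for Psmb9 was lost in 4 of 18 alternatives. The difference was 1.04 for Erap1 (adjusted p = 3.14e-06), with all treated libraries lower in cells and higher in tumors, and 0.73 for Calr (adjusted p = 2.7e-05), which also turned from lower to higher. The drug acted on a culture for 24 hours in one setting and on tumors in mice by repeated dosing in the other, so dose, time and cell mixture cannot be told apart.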

How the results depend on the processing

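In tumors, leaving out libraries moved the count of called genes between 1877 (without YJ1206 replicate 3) and 5724 (without vehicle replicate 2), from 4176 with all libraries; it was 1938 without vehicle replicate 3 and 2739 without YJ1206 replicate 2. With tumor libraries 1 and 2 only it was 1, and 0 members were called higher. Members called lower in tumors ranged from 0 to 1, the 1 being Tap2 without vehicle replicate 2. Directions reversed for genes that were not called in tumors: Nlrc5 (-0.17 on log2(TPM + 1), -0.27 on log2(TPM + 0.1), and from -0.029 without YJ1206 replicate 1 to 0.43 without YJ1206 replicate 2), Tap1 (from -0.18 to 0.19 with 1 library left out, positive without vehicle replicate 2 or, at 0.023, YJ1206 replicate 2) and Psmb8 (from -0.126 to 0.022, positive without vehicle replicate 2). The difference between effects for B2m was -0.078 without vehicle replicate 1 and 0.31 without vehicle replicate 2 (adjusted p = 0.0295, edgeR), and for Tapbp it was called on total counts (0.37) and TPM (0.40). From estimated counts in place of TPM, the change in share was 1.52, 0.508 and -2.87 percentage points for Psmb8, Psmb9 and Psmb10 in cells and 0.967 for Psmb8 in tumors. The cause of these shifts was not tested. Same-numbered libraries did not deviate together (r between -0.029 and 0.010). No pairing by number was detected, though so few libraries per group cannot exclude one. With a replicate block 8905 genes were called in cells, 3477 in tumors and 6853 for the difference, and every member kept its call. Depth limits Tap1, Psmb8, Psmb9 and Nlrc5 in cells.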

Other observations

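Over the 12 libraries, with log2(CPM + 1) centred on each experiment's mean, the genes most like B2m among 9085 were P4hb (r = 0.9919), which also rose in cells (log2 0.64) and tumors (0.78), then Gnas (0.9914), Ctsd (0.9904), Lamp1 (0.9901) and Rps26 (0.9897). Those most like Tap1 were Rab5c (r = 0.9701), Oaz1 (0.9682), Mnat1 (0.9632), Uqcrfs1 (0.9628) and Ppp2r1a (0.9588). Among the members, Tapbp was most like B2m (0.937) and Psmb8 most like Tap1 (0.899), while Psmb10 ran opposite to both (-0.854 and -0.82). The libraries fall into treated and control groups and share library series and depth within a group, and these values describe that split too; they are given without a test.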
